A study of Arabidopsis thaliana with 2 samples.

Results

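The alpha-expansins described here are the Arabidopsis genes whose annotated symbol is EXPA and a number and that have a probe set naming that gene alone, with the brightest probe set taken per locus. There were 10 of them among 13286 named loci: EXPA4, EXPA7, EXPA8, EXPA9, EXPA15, EXPA16, EXPA18, EXPA20, EXPA21 and EXPA24, each with 1 probe set. RNA came from untreated Col-0 seedlings, 7 days old and grown on a medium with sucrose, that carried parts of a synthetic oxygen sensor. The double expressor carried the fusions AD-HIFCOOD and GBD-pVHL, and the triple expressor carried both of these and PHD3, one of the animal prolyl hydroxylases that use oxygen to mark the transcription factor HIF. The comparison asks how seedlings of the sensor with PHD3 differ from those without it. Each genotype was measured on 1 Affymetrix array, so nothing here could be tested against variation between samples. Their number limits the precision. The promoters of the transgenes, the number of independent lines and the number of seedlings per array are not stated in the labels, and untransformed seedlings were not analysed here. Values are RMA values on the log2 scale, where a difference of 1 is 2-fold, and a positive difference means a higher value in the triple expressor.

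Expansins are secreted proteins of the plant cell wall that let the wall yield under turgor at acid pH, without cutting its polysaccharides. Alpha-expansins are the family best known for this activity in growing tissues of dicots. EXPA7 and EXPA18 are known for expression in root hair cells, where wall loosening accompanies the start and the outgrowth of the hair, and they form the root hair group here. The other 8 are set beside them as the other measured members of the family.

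Most of the measured alpha-expansins had slightly higher values in seedlings with PHD3. Of the 10 genes, 8 were higher and 2 lower, while over all 22746 gene probe sets 49.5% were higher and 48.8% lower. Their differences ran from -0.22 to 0.54 with a median of 0.14, beside a median of 0.00 over all gene probe sets. Over the 7 members above a floor of 5.71, the 40th percentile of all values, the median was 0.40, beside 0.02 over all probe sets above it. None reached 1.5-fold in either direction once the brighter of both values had to reach this floor. Among the 13905 gene probe sets that passed this floor, 1.53% were higher and 0.547% lower by 1.5-fold or more. At a lower threshold of 0.32 on the log2 scale, EXPA7, EXPA8, EXPA9 and EXPA18 were higher and no alpha-expansin was lower, beside 8.24% of probe sets above the floor that were higher by that much and 4.79% that were lower. Without the floor these shares were 7.39% and 6.3%, and the same 4 genes passed.

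The root hair expansins were both higher in the triple expressor. EXPA7 (AT1G12560) was at 5.75 without and 6.20 with PHD3, a difference of 0.46 or 1.37-fold. Its value in the double expressor lay just above the floor. EXPA18 (AT1G62980) was at 6.41 without and 6.80 with PHD3, a difference of 0.40 or 1.32-fold. Both genes were thus higher by a similar amount. Differences of this size in this direction were not rare at these levels. Of 1328 probe sets whose mean lay within 0.25 of that of EXPA7, 7.61% were at least as much higher, and for EXPA18 the share was 6.51% of 1658. In such probe sets the SD of the difference was 0.28 for EXPA7 and 0.25 for EXPA18, a spread over genes rather than over plants. With 32 added to the unlogged values, which damps differences at low levels, EXPA7 was higher by 0.30 and EXPA18 by 0.30.

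**Figure D1:**
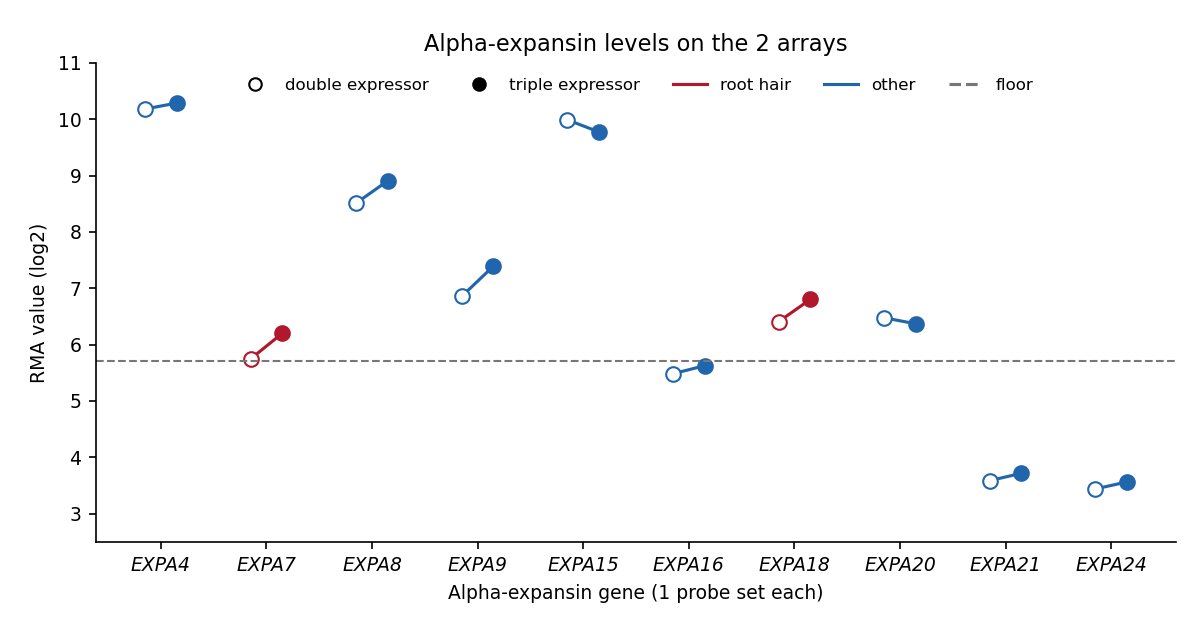
RMA values (log2) of the 10 alpha-expansins on the double expressor array (open circles) and the triple expressor array (filled circles), with the root hair genes in red, the others in blue and the floor of 5.71 as a dashed line. EXPA7, EXPA8, EXPA9 and EXPA18 have the steepest upward lines, EXPA15 and EXPA20 slope down, and EXPA16, EXPA21 and EXPA24 lie below the floor on both arrays.

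The other alpha-expansins went both ways, and the highest of them matched or passed the root hair genes. EXPA9 (AT5G02260) had the highest difference of the measured alpha-expansins, going from 6.86 without to 7.39 with PHD3, 0.54 or 1.45-fold. Of 1973 probe sets at its level 2.18% were at least as much higher. EXPA8 (AT2G40610), which is known to be induced by gibberellin in germinating seeds, went from 8.51 to 8.91. Its difference of 0.40 was equal to that of EXPA18 at this precision, and 3.26% of 1321 probe sets at its level were at least as much higher. On the damped scale EXPA9 and EXPA8 were higher by 0.44 and 0.37. They kept more of their differences than the root hair genes by construction, since damping takes less from brighter probe sets.

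EXPA15 and EXPA20 were the members lower in the triple expressor. EXPA15 (AT2G03090) went from 9.99 to 9.78, a difference of -0.22 or 1.16-fold lower, and 11.3% of 577 probe sets at its level were at least as much lower. EXPA20 (AT4G38210) went from 6.48 to 6.37, a difference of -0.11. EXPA4 (AT2G39700) went from 10.18 to 10.29, a difference of 0.11, about as far up as EXPA20 was down. For EXPA20 and EXPA4 the shares of like-level probe sets at least as far in the same direction were 27.7% and 31.9%.

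Below the floor on both arrays were EXPA16, EXPA21 and EXPA24, so no fold call was made for them. EXPA16 (AT3G55500) was at 5.48 without and 5.63 with PHD3. EXPA21 (AT5G39260) was at 3.59 and 3.72, and EXPA24 (AT5G39310) at 3.44 and 3.56. All 3 were higher by 0.12 to 0.14, and without them 5 alpha-expansins were higher and 2 lower, beside 53.9% and 45.3% of all probe sets above the floor. EXPA21 and EXPA24 are the outer genes of a row of 6 neighbouring alpha-expansin genes on chromosome 5. The 4 genes between them were reached only by 2 probe sets that name a pair of genes each, so neither can be read as 1 gene. The probe set of EXPA22 and EXP26 was at 3.16 and 3.08, and that of EXPA23 and EXPA25 at 3.54 and 3.27. Both lay below the floor and were lower in the triple expressor, while the single-gene probe sets of the same row were higher. The RefSeq table lists 26 alpha-expansin loci, 1 of them a transcribed pseudogene, and the remaining 12 were not analysed here.

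The root hair expansins had a higher median difference than the other members, but the groups overlapped. The median was 0.43 over the 2 root hair genes and 0.13 over the 8 others, 0.30 apart on the log2 scale. Of the 8 others, 7 lay below both root hair genes and EXPA9 lay above both. EXPA8 was below EXPA18 by less than the printed precision. Against probe sets at their own levels, EXPA8 and EXPA9 were farther out than both root hair genes, and the remaining others were not. Shares at least as much higher were 3.26% for EXPA8 and 2.18% for EXPA9, against 7.61% for EXPA7 and 6.51% for EXPA18. When the 3 members below the floor were left out, the median of the 5 others was 0.11 and the gap 0.32. With 2 genes in the group and 1 array per genotype, whether the gap exceeds the variation between plants could not be tested.

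**Figure D2:**
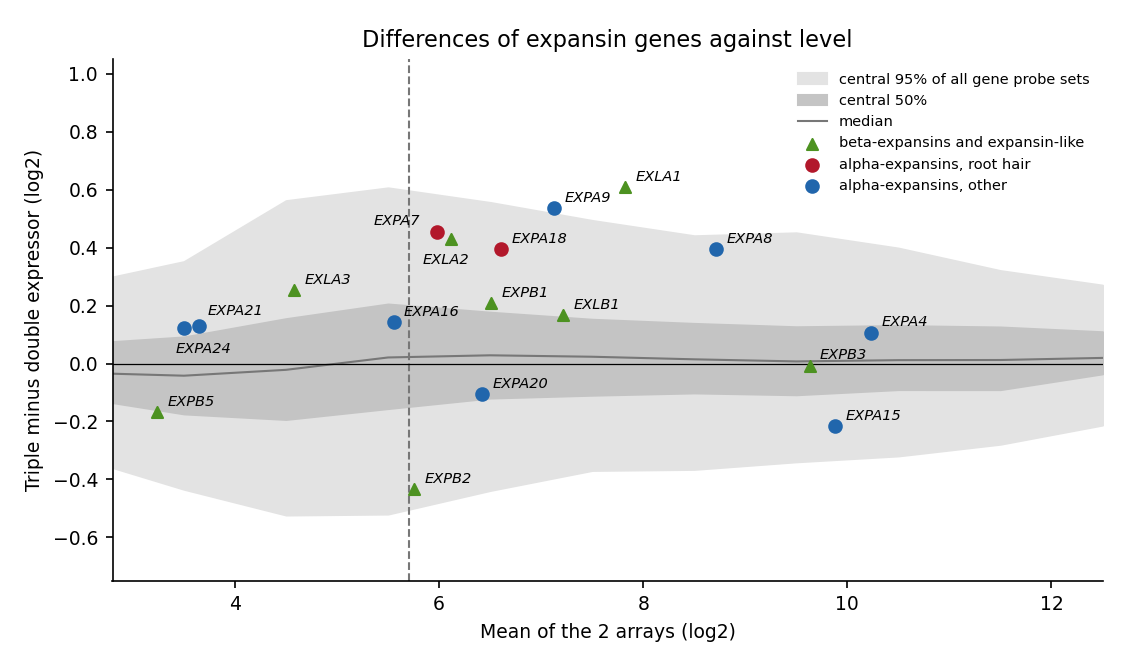
Difference between the arrays (triple minus double expressor, log2) against the mean of both arrays (log2) for alpha-expansins of root hairs (red), the other alpha-expansins (blue) and the beta-expansins and expansin-like genes (green triangles), over the central 50% and 95% of all gene probe sets in bins 1 unit wide (grey bands), with the floor as a dashed line. EXPA7 and EXPA18 lie inside the wider band, while EXPA9 and EXLA1 lie above it.

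The remaining branches of the expansin superfamily were measured in part. The list of beta-expansins and expansin-like genes holds 10 loci, of which 8 had a named probe set, with 5 higher, 3 lower and a median of 0.19, beside 49.5% higher and 48.8% lower over all gene probe sets. All 4 measured expansin-like genes, relatives for which wall-loosening activity has not been established, were higher, with a median of 0.34. EXLA1 went from 7.52 to 8.12, a difference of 0.61 or 1.52-fold. It was the only measured expansin of any branch past 1.5-fold, and 0.606% of probe sets at its level were at least as much higher. It passed narrowly, since 1.5-fold is 0.585 on the log2 scale. Its difference was 0.588 with lowess centring, but 0.574 with median centring and 0.532 on the damped scale, both short of 1.5-fold. EXLA2 went from 5.90 to 6.34, EXLB1 from 7.13 to 7.30, and EXLA3, below the floor, from 4.45 to 4.71. Beta-expansins, the branch that includes the group-1 pollen allergens of grasses, had a median of -0.09 over 4 genes and of -0.01 over the 3 above the floor, with 1 higher and 3 lower. The branches were not tested against each other. EXPB2 had the lowest difference of the expansins measured, at 5.97 without and 5.54 with PHD3, a difference of -0.43. EXPB1 was higher by 0.21, EXPB3 differed by -0.01, and EXPB5, below the floor, by -0.17.

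Other root hair genes with a named probe set were higher in the same direction as EXPA7 and EXPA18. Of 34 loci on a list of root hair genes other than expansins, 4 were measured. All were higher, beside 53.9% of all probe sets above the floor. Their differences ran from 0.11 to 0.52, with a median of 0.41 beside 0.00 over all gene probe sets. The gene not reported here by name was higher by 0.11, and 30% of probe sets at its level were at least as much higher. Of the 4 genes, 3 encode class III peroxidases, enzymes of the cell wall that use hydrogen peroxide. The peroxidase gene AT1G30870 went from 7.76 to 8.28, a difference of 0.52. AT4G26010 went from 8.04 to 8.54, higher by 0.50, and AT5G17820 from 8.74 to 9.06, higher by 0.32. These probe sets were above the floor on both arrays, and 1.59%, 1.92% and 5.89% of probe sets at their levels were at least as much higher. TRY, the only one of 10 epidermal patterning genes measured, was below the floor and differed by 0.14. The summed unlogged value of the 4 root hair genes went from 1319 to 1661.

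Markers of root and of green shoot tissue were both well above the floor in these whole seedlings. The 2 measured root markers had larger differences than the green markers, though for its level the green marker RCA was about as far out. Of 20 root markers 2 were measured. PYK10, a beta-glucosidase of root endoplasmic reticulum bodies, went from 12.86 to 13.02, and the peroxidase gene AT3G01190 was at 9.27 with PHD3. Their differences were 0.16 and 0.27, and their summed unlogged value went from 7928 to 8927. At their levels 10.5% and 8% of probe sets were at least as much higher. Of 16 green shoot markers 5 were measured, and 4 were higher and 1 lower, beside 53.9% and 45.3% of all probe sets above the floor. They lay between -0.03 for PRK and 0.11 for LHCB4.2, with RCA and LHCB4.3 at 0.10 each. The median of the green markers was 0.10, beside 0.02 over all probe sets above the floor. Their summed unlogged value went from 34149.9 to 35414. For RCA, 10% of the 10 probe sets at its level were at least as much higher. The shares at least as far in the same direction were 26.2% to 51.4% for the other green markers. The part of root content in the differences of the root hair genes was not tested. In RNA of whole seedlings, more root hair cells and more RNA per root hair cell cannot be told apart.

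Among regulators of elongation growth, EXO stood apart from the rest. Of 19 loci on the list 5 were measured, 3 higher and 2 lower, beside 49.5% higher and 48.8% lower over all gene probe sets. Their median was 0.03, beside 0.00 over all gene probe sets. EXO, a gene of brassinosteroid-promoted growth, went from 9.28 to 10.30, a difference of 1.02, and none of the probe sets at its level was as much higher. FER, a receptor kinase for RALF peptides that is needed for root hair growth, was higher by 0.18. The gibberellin receptors GID1A and GID1B differed by -0.07 and 0.03. GID1C, below the floor, differed by -0.02. Plasma membrane proton pumps, which acidify the wall and so set the pH at which expansins act, had no named probe set among 11 loci and were not analysed here.

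**Figure D3:**
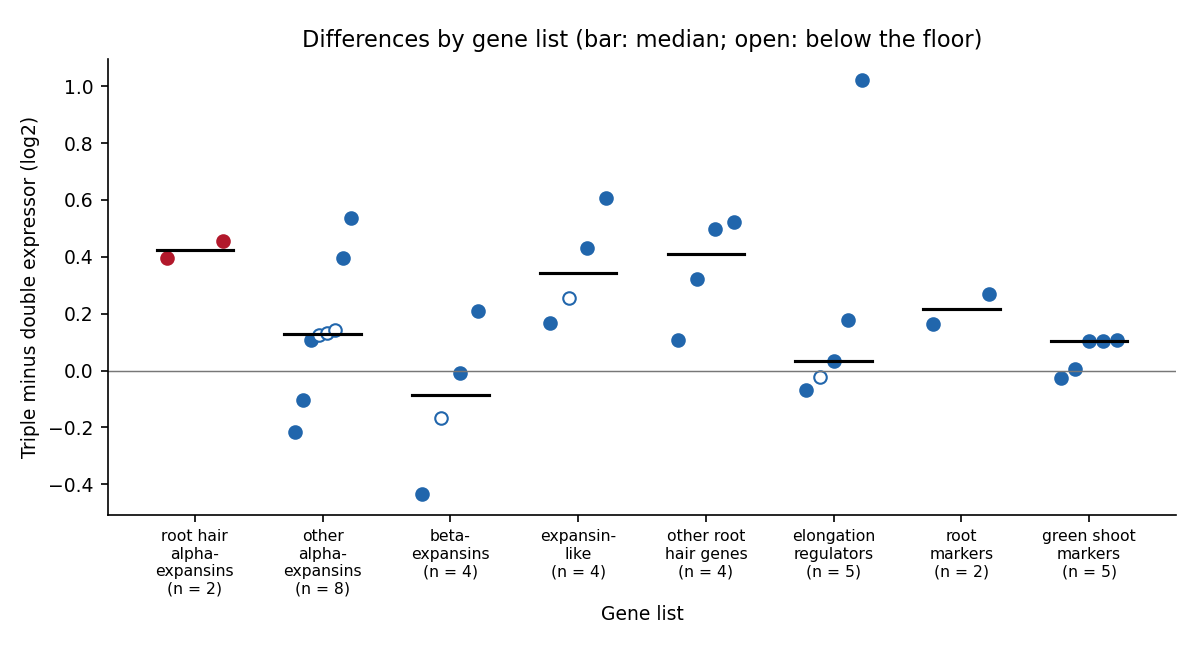
Difference between the arrays (triple minus double expressor, log2) of every measured gene of 8 groups, with 1 point per gene, the median as a black bar and open points for genes below the floor on both arrays. The root hair expansins at 0.40 and 0.46 lie within the range of the other root hair genes, 0.11 to 0.52, and of the other alpha-expansins, -0.22 to 0.54.

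The 4 alpha-expansins higher by over 0.32 lie apart on the genome, EXPA7 and EXPA18 on chromosome 1, EXPA8 on chromosome 2 and EXPA9 on chromosome 5. Each was compared with the 5 nearest loci on either side that had a probe set naming 1 gene, in the order of the RefSeq table. Loci without such a probe set were passed over. The 10 neighbours of EXPA7 had a median difference of -0.01 and ran from -0.56 to 0.20, so all were below EXPA7. Several of them were below the floor on both arrays, among them AT1G12630, the locus at -0.56. The nearest of the 10 were CCS, a copper chaperone gene, at 0.20 and AT1G12570, below the floor, at -0.05. Over all of AT1G12, 3 of 27 other named loci above the floor, or 11.1%, were higher by 1.5-fold or more, and 0 were lower. Outside AT1G01 to AT1G12, 1.37% of named nuclear loci above the floor were higher by as much. The neighbours of EXPA8 had a median of -0.05 and those of EXPA9 a median of -0.03, and none was as high as the expansin beside it. Around EXPA18 the median was -0.04, and 1 of 10 neighbours, AT1G62880, was slightly higher than it at 0.40. Most neighbours of EXPA18 and some of those of EXPA8 and EXPA9 were below the floor. Because these 4 expansins were picked for high differences, lower neighbours were likely from the start. Only 7.39% of all gene probe sets were higher by 0.32 or more. Around EXPA4, EXPA15, EXPA16, EXPA20, EXPA21 and EXPA24, 3, 10, 4, 7, 1 and 2 of 10 neighbours were higher than the member.

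**Figure D4:**
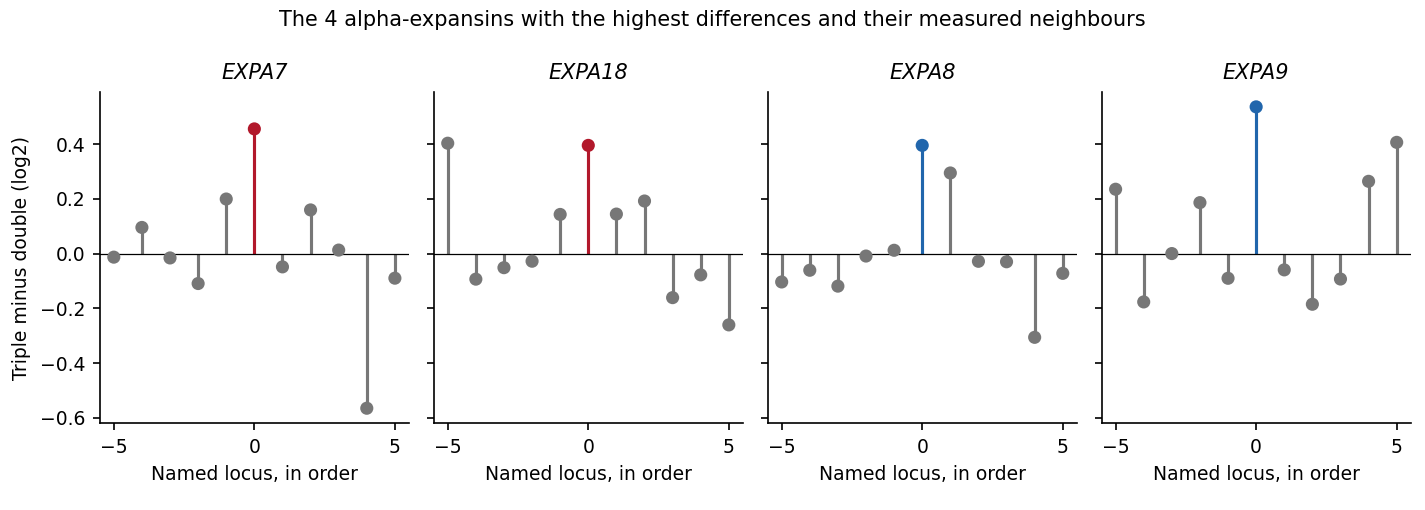
Difference between the arrays (triple minus double expressor, log2) for EXPA7, EXPA18, EXPA8 and EXPA9 (coloured, position 0) and for the 5 nearest measured, named loci on either side (grey), placed by order along the chromosome and not by distance. The expansin is the highest point in the panels of EXPA7, EXPA8 and EXPA9, and in that of EXPA18 it is just below the locus at the left end.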

How the data were processed

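The authors deposited log2 values for 22810 probe sets on 2 arrays. The submitters' processing notes name RMA, with no version. The log2 scale was read from the range of the values, 2.39 to 14.3. RMA puts arrays on one distribution, which hides any change common to most genes. The 64 Affymetrix control probe sets were left out. Genes were named from the platform annotation through gene identifiers to the RefSeq table of TAIR10.1, in which all 10 alpha-expansins matched. Of the gene probe sets, 13513 name 1 gene, 503 several and 8730 none. Coordinates are not printed, since the files name no genome build.

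Named were every alpha-expansin, every other expansin and, per further list, the members with the largest differences (up to 4), except that 1 root hair gene is not reported here by name. LHCB4.1, the remaining green marker, and GID1C, the remaining elongation regulator, differed by 0.01 and -0.02. Neighbouring loci were named after their values were seen. Members and lists were chosen with earlier results of these data known, so the higher values of EXPA7 and EXPA18 are not independent support for anything. The counting steps were tested on simulated data. The differences put in were larger than that of any alpha-expansin and lay in probe sets well above the floor. That test therefore does not cover differences of the size reported here. Alternatives were median and lowess (span 0.3) centring, other floors and folds, a damped scale (32 added), the mean of a locus's probe sets and leaving out cross-hybridising probe sets. Computations used Python 3.11.15, numpy 2.4.6, pandas 2.3.3, statsmodels 0.14.6 and matplotlib 3.10.9.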

Additional observations from a re-analysis of the deposited data

How the results depend on the processing

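Of 30 recomputed differences of single alpha-expansins, none moved by more than the SD at its level or changed sign. Restricting the family to members above the 40th percentile floor gave 5 higher in place of 8 and a median of 0.40 in place of 0.14, by construction of leaving out EXPA16, EXPA21 and EXPA24. A floor at the 60th percentile (7.16) left 3 higher and 1 lower and no root hair gene, so the gap between root hair and other members has no value there. Otherwise that gap ran from 0.24 on the damped scale to 0.32 above the floor. Without EXPA7 it was 0.27, and without EXPA8 and EXPA9 0.31, and both of these settings were chosen after seeing the data. The family median without EXPA7 and EXPA18, also chosen later, was 0.13. Lowering the threshold to 0.32 on the log2 scale turned 0 members higher into 4. Over all genes, 289 probe sets at least 1.5-fold apart became 135 with the 60th percentile floor, 108 on the damped scale, 36 at 2-fold and 1812 at 0.32 on the log2 scale. Taking the mean of probe sets or leaving out cross-hybridising ones changed no member, since each has 1 probe set and none is so marked. Low signal limits EXPA16, EXPA21 and EXPA24, and EXPA7 in the double expressor. No array could be left out. No paired analysis was possible because there is a single array of each kind.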

Other observations

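EXPA7 lies in a stretch of upper chromosome 1, from AT1G01 to AT1G12, where several of the farthest differences between the arrays are found. Of 355 other named loci above the floor there, 3.94% were higher and 1.13% lower with PHD3 by 1.5-fold or more, against 1.37% and 0.486% of 7000 named nuclear loci elsewhere. Within AT1G12, where EXPA7 lies, 3 of 27 other named loci above the floor, or 11.1%, were higher by 1.5-fold or more, the farthest by 1.44 on the log2 scale, and 0 were lower by as much. Whether the stretch has a part in the difference of EXPA7 was not tested.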
